A study of Mus musculus with 2 samples.

Results

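The 40 genes described here encode chromatin and DNA methylation regulators, and they were taken as a list of named genes from the 43346 Ensembl genes in the gene tables of a mouse stomach RNA-seq experiment. All 40 symbols were found in both libraries. The 2 libraries form a single group of biological replicates. Each pooled the stomachs of healthy B6NCrl embryos of both sexes at 16.5 days of development (E16.5). The pool of replicate 2 held 41 embryos, and the number in replicate 1 was not given. Libraries were made from 10 ng of RNA longer than 200 nucleotides with spike-in RNAs added, and no genotype, treatment or second age was part of the design. Because the tissue was sampled in bulk, fewer cells of a type and less RNA per cell cannot be told apart in any value below.

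Polycomb repressive complexes mark and silence developmental genes: PRC2 methylates a lysine of histone H3, and PRC1 binds that mark and ubiquitylates histone H2A. DNA methyltransferases write methylcytosine at CpG dinucleotides and copy it at replication, and TET enzymes oxidise it. Histone deacetylases, acetyltransferases, methyltransferases and demethylases set the other marks, while SWI/SNF and CHD complexes move nucleosomes with energy from ATP. In the developing gut these factors are known for separating stomach from intestinal and squamous programmes and for sustaining proliferation.

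Replicate 1 held 44567153 expected counts and replicate 2 held 25677702. Both libraries held stomach markers, among them the gastric mesenchyme factor Barx1 at 47.3 and 39.5 TPM (transcript counts per length, scaled to 1 fixed total in each library). Gata4, like Barx1, was higher in replicate 1, Pitx1 was near level, and Cym, Gkn1, Tff1 and Krt8 were higher in replicate 2. Markers of other tissues were abundant too. The 4 pancreas markers summed to 8315 and 9423 TPM, and the 3 liver markers to 1135 and 889 TPM. The 5 erythroid markers summed to 22260 and 21713 TPM. The 9 skeletal muscle markers summed to 2166 TPM in replicate 1 and 176 TPM in replicate 2, and each of the 9 was higher in replicate 1. The 5 squamous epithelial markers summed to 3989 and 6889 TPM, and the 4 surface mucous markers to 787 and 1633 TPM. The 4 proliferation markers were level at 426 and 423 TPM in sum. Of the 4 germ-cell and pluripotency markers none reached 1 TPM in either library, and Dppa3 was listed at 0 in both. The part of these marker differences in any member's difference was not tested.

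Chromatin regulators were expressed as a whole: 39 of the 40 reached 1 TPM in both libraries, where 13815 of 21474 protein-coding genes, or 64.3%, did so. Only Dnmt3l stayed below. The median member level was 16.8 TPM in replicate 1 and 18.96 TPM in replicate 2, or 17.9 ± 1.51 TPM (SD, n = 2). This lay beside a median of 17.4 TPM over detected protein-coding genes, and 21 of the 40 members were above that value. Levels spanned from Hdac1 at 159 and 174 TPM to Dnmt3l at 0.51 and 0.48 TPM. In the order of mean level, the ranges of neighbouring genes overlapped for 23 of 39 neighbour pairs. The first 7 places, Hdac1, Smarcb1, Hdac2, Hdac3, Uhrf1, Cbx6 and Rnf2, were each separated from the next gene.

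**Figure D1:**
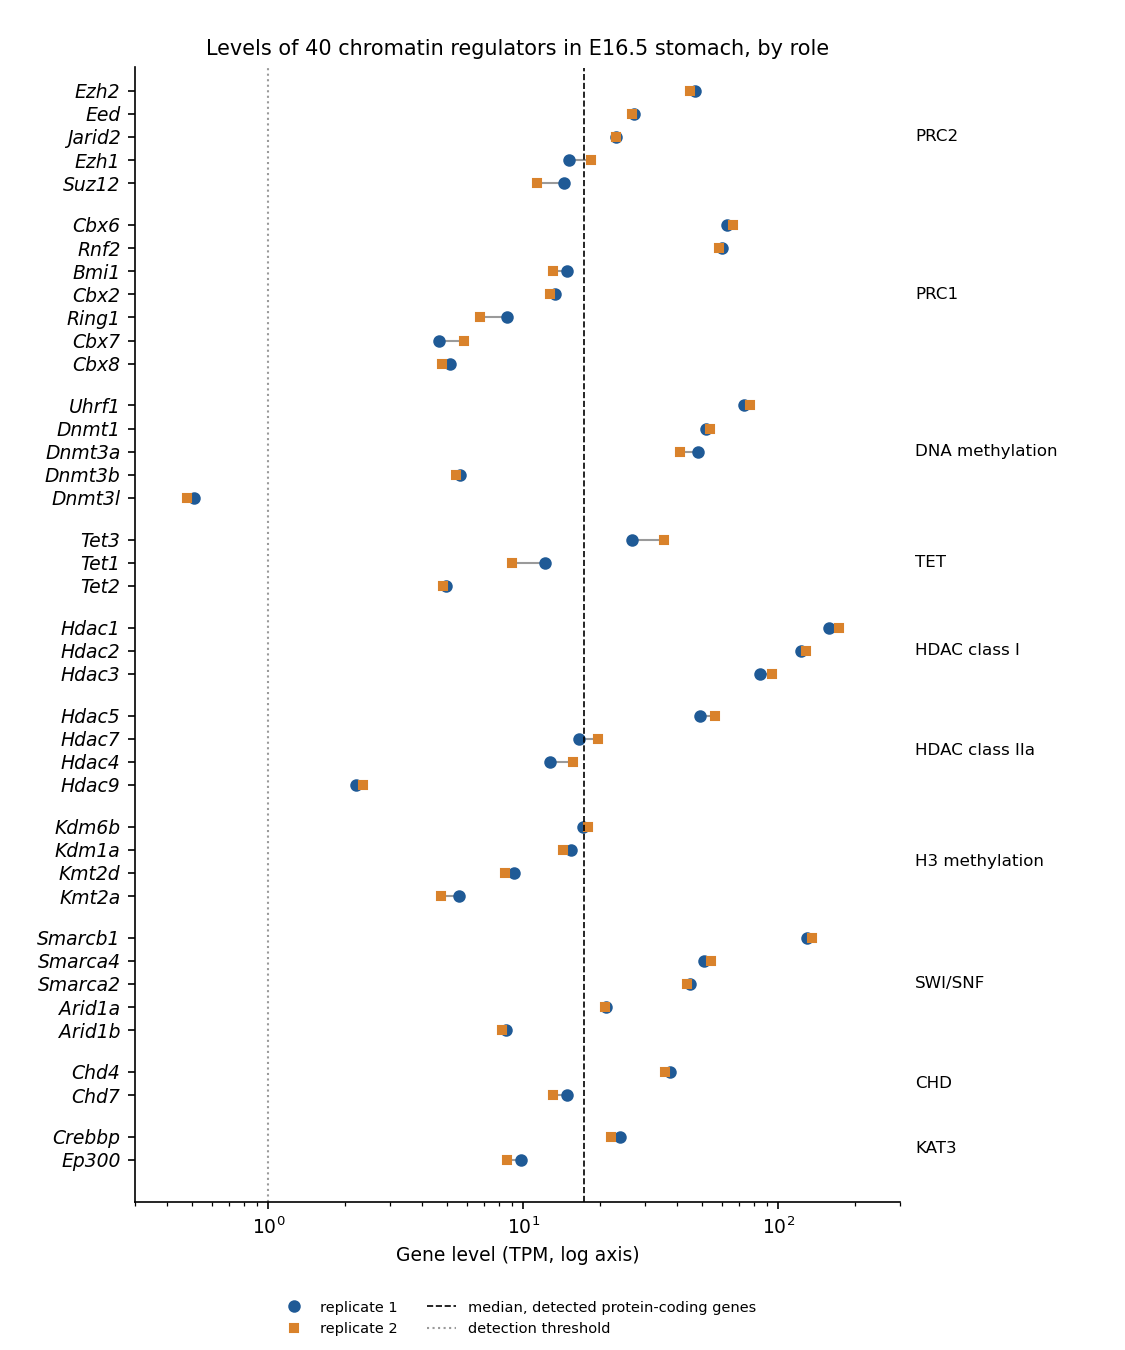
Level of each member in TPM on a log axis, grouped by role, with replicate 1 as circles and replicate 2 as squares. The dashed line is the median of detected protein-coding genes at 17.4 TPM and the dotted line the detection threshold of 1 TPM, which Dnmt3l alone does not reach.

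Within PRC2 the catalytic subunit Ezh2 led. Ezh2 stood at 47.1 TPM in replicate 1 and 45.1 TPM in replicate 2, and its paralog Ezh1, the less active methyltransferase of many differentiated tissues, at 15.04 and 18.3 TPM. Ezh2 was thus 2.77-fold higher, a log2 difference of 1.47 ± 0.25 (SD, n = 2), with no overlap between the genes. Eed, the subunit that reads the methyl mark, was at 27.2 and 26.6 TPM. Suz12, the scaffold of the complex, was at 14.4 and 11.4 TPM, the lowest of the 5 PRC2 members. Jarid2, a DNA-binding accessory subunit, was at 23.0 and 23.1 TPM, the most even of the 5 between the libraries. Transcript Ezh2-201, which encodes 746 residues, carried 62.8% and 64.6% of the Ezh2 TPM. Suz12-206 (718 residues) led Suz12 with 43.2% and 59.2%. The RefSeq promoter window of Ezh2 is shown as a member rich in CpG. It covers 250 bases before to 50 bases after the transcript start (chr6:47594981-47595280, minus strand, GRCm38), with each CpG in capitals, and it holds 31 of them, or 0.999 of the number expected from its C and G content.
Ezh2-201: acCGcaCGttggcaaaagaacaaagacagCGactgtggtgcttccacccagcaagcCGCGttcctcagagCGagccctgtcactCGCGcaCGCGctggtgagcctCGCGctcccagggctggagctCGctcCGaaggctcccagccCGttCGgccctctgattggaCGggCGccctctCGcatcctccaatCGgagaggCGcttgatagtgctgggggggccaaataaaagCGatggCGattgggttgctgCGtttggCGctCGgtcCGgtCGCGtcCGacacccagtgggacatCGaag

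PRC1 was dominated by a pair of its members. Rnf2, the main E3 ubiquitin ligase of the complex, was at 60.01 and 58.7 TPM, against 8.65 and 6.77 TPM for its paralog Ring1. Rnf2 was 7.67-fold higher (log2 difference of Ring1 over Rnf2 -2.94 ± 0.22, n = 2). The CBX proteins carry the chromodomain that reads the PRC2 mark, and Cbx6 was the most abundant of the 4 members at 63.05 and 66.7 TPM. Cbx2 followed at 13.3 and 12.7 TPM, so that Cbx6 was 4.94-fold above it. Cbx7 was at 4.65 and 5.83 TPM and Cbx8 at 5.15 and 4.79 TPM. The Cbx7 and Cbx8 values overlapped, the only pair of the 29 within-family pairs to do so. Cbx6 made up 73.6% ± 0.649 of the summed TPM of these 4 genes. Bmi1, a Polycomb ring-finger protein known for stem cell self-renewal, was at 14.8 and 13.1 TPM. Cbx6-202 (396 residues) and Cbx6-203 (414 residues) carried 50.4% ± 0.0615 and 44.2% ± 0.15 of the Cbx6 TPM. Cbx6-203 holds 2750 exon bases that Cbx6-202 lacks, and Cbx6-202 holds 0 that Cbx6-203 lacks, so this split is less certain than its SD. Cbx7-203 (158 residues) exceeded Cbx7-201 (251 residues), with 59.01% ± 4.51 against 26.01% ± 2.53.

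The DNA methylation machinery was led by its maintenance arm. Uhrf1, which binds hemimethylated CpG and recruits the maintenance enzyme, was at 73.3 and 77.4 TPM. Dnmt1, the maintenance methyltransferase, was at 52.2 and 53.97 TPM. Dnmt3a, a de novo methyltransferase, was at 48.3 and 41.3 TPM, 1.19-fold under Dnmt1. Both enzymes were well above the second de novo enzyme: Dnmt3b was at 5.66 and 5.45 TPM, and Dnmt3a exceeded it 7.91-fold. Dnmt3l, a cofactor without catalytic activity that acts with the de novo enzymes in germ cells and the early embryo, had 14 and 6 expected counts. It did not pass the filter on low counts and no ratio between the libraries was computed for it. Dnmt1 and Dnmt3a made up 51.1% and 43.03% of the summed TPM of the 4 DNMT genes.

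TPM of Dnmt1 and of Dnmt3a was assigned to forms with more than 1 start. The windows of these starts are shown because their CpG content differs. Dnmt1-201, the 1620-residue form, carried 72.6% and 64.6% of the Dnmt1 TPM. Dnmt1-202 starts 6909 bases upstream and encodes 1501 residues; a form that starts upstream and lacks N-terminal residues is known from mouse oocytes. It carried 25.02% and 34.5%, or 13.1 and 18.6 TPM. The transcripts share 5092 exon bases, while 275 belong to Dnmt1-201 alone and 156 to Dnmt1-202 alone, so the split rests on few bases. Germ-cell and pluripotency markers were under 1 TPM, as given above, and which cells the Dnmt1-202 reads came from was not tested. For Dnmt3a, the 908-residue Dnmt3a-201 and the 689-residue Dnmt3a-203 start 84714 bases apart. Dnmt3a-201 carried 41.6% and 40.99% of the TPM, and Dnmt3a-203, the short form known from embryonic stem cells and germ cells, 31.4% and 41.4%. These forms share 5307 exon bases, with 4378 in Dnmt3a-201 alone and 117 in Dnmt3a-203 alone. The share of the short form thus rests on few bases of its own. The leading transcript by TPM was Dnmt3a-201 in replicate 1 and Dnmt3a-203 in replicate 2, and by expected counts it was Dnmt3a-201 in both. In the windows below each CpG is in capitals. The windows are chr9:20952930-20953229 for Dnmt1-201, chr9:20959839-20960138 for Dnmt1-202, both on the minus strand, and chr12:3806730-3807029 for Dnmt3a-201, chr12:3891494-3891793 for Dnmt3a-203 and chr10:78055085-78055384 for Dnmt3l-206, all on the plus strand.
Dnmt1-201: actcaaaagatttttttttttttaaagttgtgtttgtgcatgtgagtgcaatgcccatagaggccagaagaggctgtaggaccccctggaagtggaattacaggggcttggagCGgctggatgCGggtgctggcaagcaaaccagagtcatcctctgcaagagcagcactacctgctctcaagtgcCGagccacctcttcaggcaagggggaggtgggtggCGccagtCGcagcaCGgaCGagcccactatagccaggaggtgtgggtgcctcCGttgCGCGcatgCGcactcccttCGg
Dnmt1-202: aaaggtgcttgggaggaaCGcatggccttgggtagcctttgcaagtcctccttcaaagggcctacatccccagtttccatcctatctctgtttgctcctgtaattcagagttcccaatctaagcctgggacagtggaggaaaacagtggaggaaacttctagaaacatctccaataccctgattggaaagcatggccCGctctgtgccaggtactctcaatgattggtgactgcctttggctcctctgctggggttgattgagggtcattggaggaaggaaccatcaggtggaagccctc
Dnmt3a-201: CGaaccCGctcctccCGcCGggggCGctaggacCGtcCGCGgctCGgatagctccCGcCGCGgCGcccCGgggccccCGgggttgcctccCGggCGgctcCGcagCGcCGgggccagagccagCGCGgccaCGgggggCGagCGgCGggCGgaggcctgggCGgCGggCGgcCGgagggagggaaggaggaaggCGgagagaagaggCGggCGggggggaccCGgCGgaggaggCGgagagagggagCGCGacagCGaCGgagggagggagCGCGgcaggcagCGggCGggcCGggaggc
Dnmt3a-203: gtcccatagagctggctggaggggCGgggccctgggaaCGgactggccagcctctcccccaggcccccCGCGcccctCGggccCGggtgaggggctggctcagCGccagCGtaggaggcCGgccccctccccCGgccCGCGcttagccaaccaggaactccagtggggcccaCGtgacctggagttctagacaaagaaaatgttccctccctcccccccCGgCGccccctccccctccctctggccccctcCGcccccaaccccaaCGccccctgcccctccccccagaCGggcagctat
Dnmt3l-206: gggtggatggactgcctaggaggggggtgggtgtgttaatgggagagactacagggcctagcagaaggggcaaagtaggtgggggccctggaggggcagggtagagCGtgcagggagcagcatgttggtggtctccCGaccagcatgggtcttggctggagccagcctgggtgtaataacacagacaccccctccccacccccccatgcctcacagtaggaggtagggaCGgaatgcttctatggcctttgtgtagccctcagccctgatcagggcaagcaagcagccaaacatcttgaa
These hold 12, 2, 46, 18 and 3 CpG dinucleotides in that order. As a share of the expected number this is 0.5 for Dnmt1-201 and 0.101 for Dnmt1-202, 0.964 for Dnmt3a-201 and 0.468 for Dnmt3a-203, and 0.114 for Dnmt3l-206. For Dnmt1 and for Dnmt3a alike, a sizeable part of the TPM was assigned to a form whose start lies in a window of lower CpG content.

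Among the TET dioxygenases, which oxidise methylcytosine, Tet3 was highest. Tet3 was at 26.8 TPM in replicate 1 and 35.8 TPM in replicate 2. Tet1, known from embryonic stem cells, was at 12.2 and 8.99 TPM, and Tet2, known from blood stem cells, at 4.99 and 4.84 TPM. Tet3 was 2.93-fold above Tet1 and 6.19-fold above Tet2. Tet1 and Tet3 were the least even members in TPM, in opposite directions. Counted only over transcripts with a complete coding sequence, they were nearly level between the libraries, at 3.18 and 2.96 TPM for Tet1 and 12.7 and 13.02 TPM for Tet3. The leading transcripts by TPM, Tet1-202 and Tet3-201, are annotated as processed transcripts without a coding sequence, with 49.1% ± 1.38 and 33.98% ± 4.79 of the gene. By expected counts complete coding forms led both genes, Tet1-206 (2039 residues) and Tet3-202 (1668 residues). A longer complete form, Tet3-203 (1803 residues), held 20.3% and 18.7% of the Tet3 expected counts.

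Class I deacetylases were the most abundant group. Hdac1 was at 159 and 174 TPM, Hdac2 at 123 and 129 TPM, and Hdac3, the catalytic subunit of the NCoR and SMRT co-repressor complexes, at 84.8 and 94.7 TPM. Hdac1 and Hdac2, which share the NuRD, Sin3 and CoREST complexes, differed 1.32-fold. All 3 were above the 87th percentile of detected protein-coding genes. The class IIa enzymes shuttle between nucleus and cytoplasm and bind MEF2 factors, and they were lower. Hdac5 was at 49.2 and 56.7 TPM, Hdac7 at 16.5 and 19.6 TPM, and Hdac4 at 12.7 and 15.7 TPM. Hdac9 was at 2.2 and 2.35 TPM, the lowest member above the detection threshold, and Hdac5 exceeded it 22.3-fold. The Hdac9 level is that of 1 listed transcript alone, Hdac9-201, which encodes 588 residues, where the leading Hdac5-202 encodes 1102. Hdac5 made up 60.6% ± 0.659 of the class IIa TPM. The promoter windows of a high and a low member of the family, Hdac2-201 (chr10:36974294-36974593, plus strand) and Hdac9-201 (chr12:34528840-34529139, minus strand), are set side by side with CpG in capitals.
Hdac2-201: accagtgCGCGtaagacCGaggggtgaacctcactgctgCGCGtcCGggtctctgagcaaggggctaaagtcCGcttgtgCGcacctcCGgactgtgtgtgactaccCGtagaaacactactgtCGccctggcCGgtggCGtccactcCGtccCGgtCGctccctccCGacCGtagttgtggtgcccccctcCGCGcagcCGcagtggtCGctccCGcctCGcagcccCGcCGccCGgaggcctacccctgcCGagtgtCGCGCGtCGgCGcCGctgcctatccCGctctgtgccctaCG
Hdac9-201: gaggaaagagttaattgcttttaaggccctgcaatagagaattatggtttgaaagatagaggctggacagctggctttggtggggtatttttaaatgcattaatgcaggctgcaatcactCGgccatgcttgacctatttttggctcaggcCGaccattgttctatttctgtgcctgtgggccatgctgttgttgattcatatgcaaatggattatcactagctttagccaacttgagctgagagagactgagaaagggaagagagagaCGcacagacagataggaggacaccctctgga
The Hdac2 window holds 36 CpG dinucleotides, 1.01 of the expected number, and the Hdac9 window 3, 0.205 of the expected number.

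Histone H3 methylation enzymes were of middle or low level. The trithorax methyltransferases Kmt2d and Kmt2a, which act on enhancers and on Hox and other promoters, were at 9.19 and 8.5 TPM and at 5.6 and 4.75 TPM. Kmt2d was 1.7-fold higher. Kdm6b, the demethylase that removes the PRC2 mark, was at 17.1 and 17.9 TPM. Kdm1a, the demethylase of the CoREST complex, was at 15.4 and 14.3 TPM. Its leading transcript was Kdm1a-202 (873 residues) in replicate 1, with 44.5% against 24.4% for Kdm1a-203 (853 residues), and Kdm1a-203 in replicate 2, with 31.9% against 28.9%. By posterior mean TPM Kdm1a-202 led in both libraries. Kdm1a-202 holds an internal exon of 60 bases (chr4:136582040-136582099, minus strand, GRCm38) that Kdm1a-203 lacks and that adds 20 residues. The exon is printed in capitals between 15 flanking bases on each side, since it parts the forms.
Kdm1a-202: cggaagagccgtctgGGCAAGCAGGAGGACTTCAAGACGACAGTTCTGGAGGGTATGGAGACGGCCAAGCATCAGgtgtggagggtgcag

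The SWI/SNF remodeller was represented by its core, its ATPases and its largest accessory subunits. Smarcb1, a core subunit and tumour suppressor, was the second most abundant member at 129 and 136 TPM. The ATPases Smarca4 and Smarca2, which exclude each other in the complex, were near each other at 51.2 and 54.5 TPM and at 44.9 and 43.8 TPM. Arid1a, the DNA-binding subunit, was at 21.2 and 20.97 TPM, 2.49-fold above its alternative Arid1b at 8.55 and 8.27 TPM. Smarcb1 was read as a pair of forms of similar level: Smarcb1-201 (385 residues) held 51.7% and 52.2%, and Smarcb1-202 (376 residues) 46.5% and 46.1%. The forms differ by 27 exon bases inside the transcript (chr10:75916773-75916799, minus strand, GRCm38), which encode 9 residues and are shown in capitals between 15 flanking bases.
Smarcb1-201: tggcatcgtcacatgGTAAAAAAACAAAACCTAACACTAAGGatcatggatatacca

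Chd4, the ATPase of the NuRD complex, was at 37.6 and 35.8 TPM. Chd7, the remodeller of developmental enhancers mutated in human CHARGE syndrome, was at 14.8 and 13.1 TPM, so that Chd4 was 2.63-fold higher. Of the paired acetyltransferases that serve as co-activators at enhancers, Crebbp was at 23.96 and 22.1 TPM and Ep300 at 9.76 and 8.61 TPM. Crebbp was 2.5-fold above Ep300.

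The regulators were close between the pools. On expected counts scaled by the trimmed mean of M values (TMM), 39 members passed the filter on low counts and 0 of them differed by more than 25%, taken as the excess of the larger value over the smaller, where 21.7% of all 17763 genes tested did so. By direction, 10.9% of all genes were higher in replicate 1 and 10.8% higher in replicate 2 beyond that limit, and beyond 2-fold 3.58% differed either way. The 17763 genes were not matched to the members in level, count or length, so the closeness cannot be called particular to regulators. With 1 group of 2 libraries no test was possible. Member log2 ratios of replicate 1 over replicate 2 ran from -0.19 for Cbx7 to 0.32 for Ep300, which lay just inside the 25% limit. Next to it were Suz12 at 0.29, Bmi1 at 0.28 and Kmt2a at 0.28. The median was 0.08 over members and 0.0021 over all genes, and the median size of a ratio was 0.11 and 0.14. Ratios were above 0 for 25 members and below 0 for 14 by TMM, and below 0 for all 39 by spike-in totals. The 3 class I deacetylases were below 0 under either scaling, while both CHD remodellers and both acetyltransferases were above 0 by TMM and below 0 by spike-in totals. With the latter scaling the median of all genes moved to -0.57 and that of members to -0.50, so members stayed 0.07 above all genes.

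**Figure D2:**
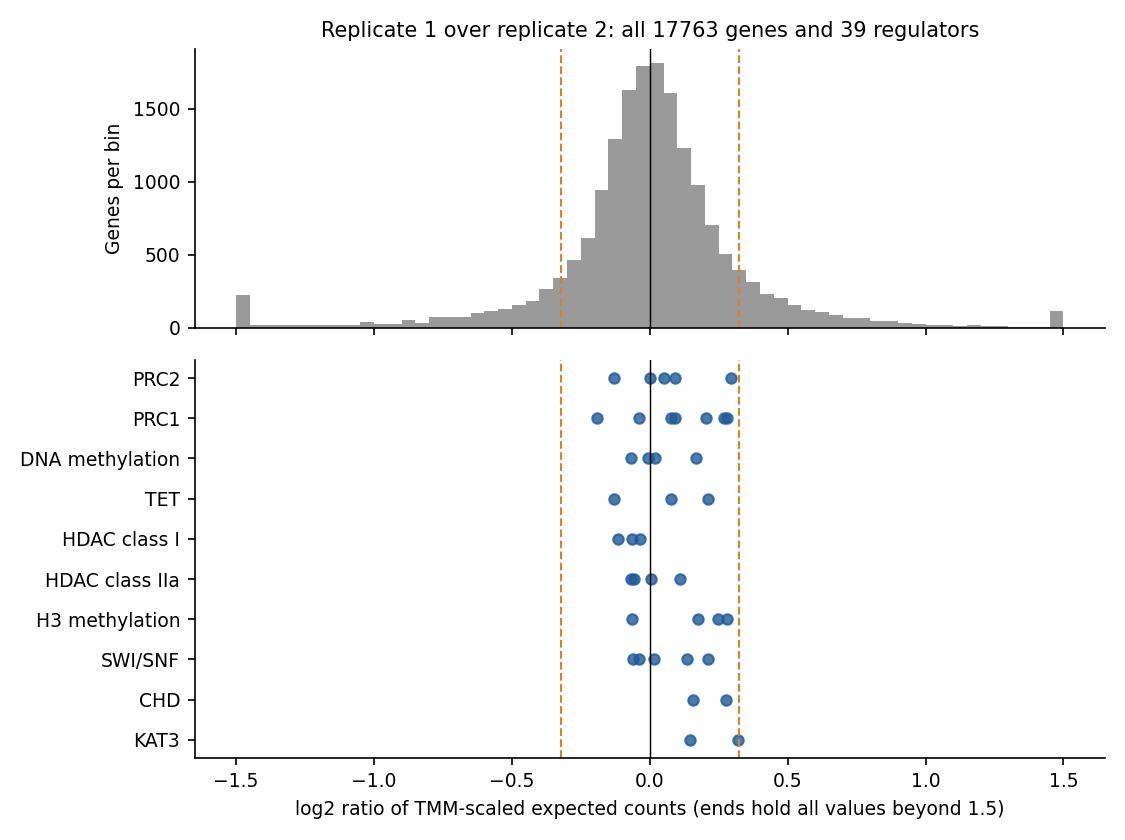
Log2 ratio of replicate 1 over replicate 2 from TMM-scaled expected counts, as a histogram of all 17763 genes tested in bins (top) and as 1 point per member by role (bottom). Dashed lines mark a 25% excess of either library, and all 39 members lie between them, from -0.19 to 0.32.

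In unscaled TPM 5 of the 39 members, Suz12, Ring1, Cbx7, Tet1 and Tet3, passed 25%, where 24.6% of all genes tested did so. By spike-in totals 33 members and 86.8% of all genes did, and by total expected counts 1 member (Ep300) and 21.9%. With no filter on low counts 2 of the 40 members did (Dnmt3l and Ep300), against 39.8% of genes with a count. The deposited TPM intervals, whose level was not given in the sources used here, did not overlap between the libraries for 8 members, against 20.8% of all genes tested. These were Suz12, Dnmt3a and Crebbp, higher in replicate 1, and Ezh1, Tet3, Hdac1, Hdac3 and Hdac4, higher in replicate 2. The TPM and the scaled expected counts differed most for Hdac5 and Tet3. For Hdac5 the direction turned, with a log2 ratio of replicate 1 over replicate 2 of 0.11 by counts and -0.20 by TPM. Tet3 was 1.34-fold higher in replicate 2 by TPM and 1.09-fold by counts. Tet3-201 held 30.6% of the Tet3 TPM in replicate 1 and 37.4% in replicate 2, and its part in the difference was not tested.

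Which transcripts were counted changed the standing of several paralogs. Transcripts annotated as protein-coding with both ends of the coding sequence held a median of 85.6% of the member TPM, against 96.5% over detected protein-coding genes. The latter were not matched to the members in length or number of transcripts. Median length was 3736 bases for members and 2465 for detected protein-coding genes, so the lower share cannot be called particular to regulators. They held under 50% in both libraries for 6 members: Ep300, Tet1, Cbx8, Smarca2, Tet3 and Chd7. For 16 members the share was above 90% in both, among them Tet2 and Hdac9, which have 1 listed transcript each and so could show no other share. Ep300 had 29.9% ± 2.89 in complete coding transcripts, with the retained-intron form Ep300-205 leading at 41.2% and 31.9% of TPM. Smarca2 had 38.8% ± 2.23, and its leading form Smarca2-215, at 37.1% and 40.3%, is annotated as a target of nonsense-mediated decay. Retained-intron transcripts also held 44.4% of Hdac7 and 41.6% of Hdac5. By expected counts, which are not divided by length, the leading transcript was a complete coding one in both libraries for 39 of the 40 members, Hdac7 being the exception. By TPM it was so for 33, and by posterior mean TPM for 32.

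**Figure D3:**
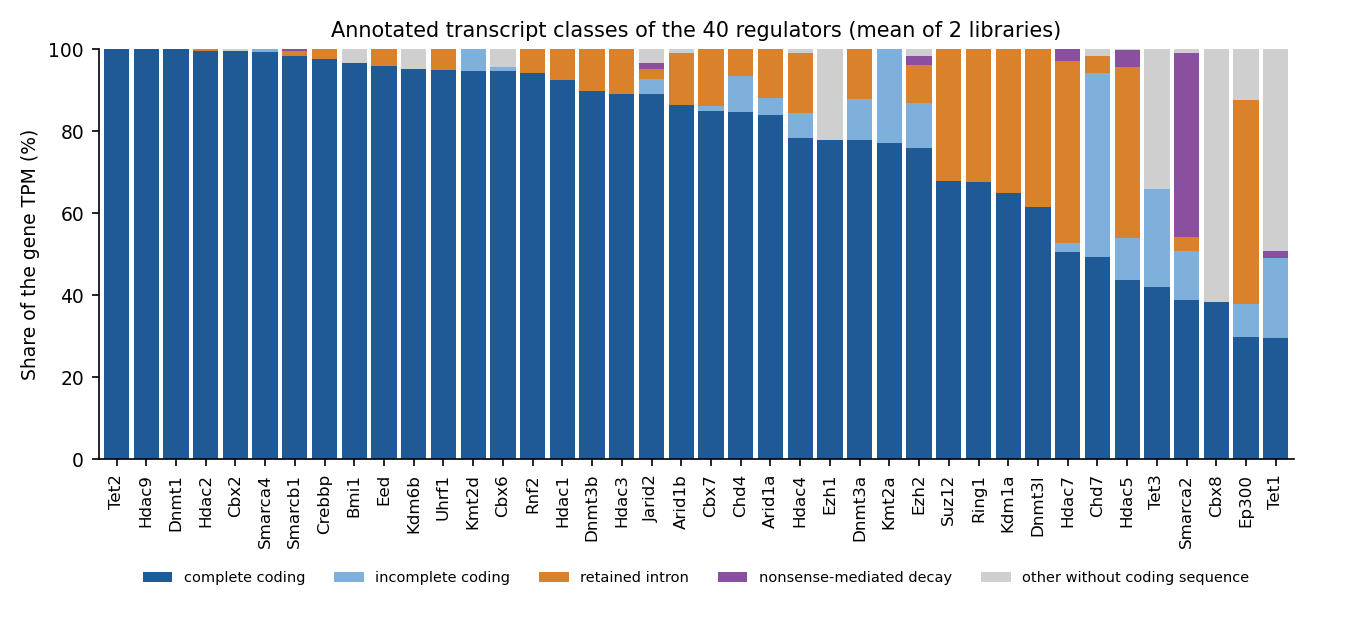
Share of each member's TPM by annotated transcript class, mean of 2 libraries, in order of the complete coding share. Bars run from Tet2, Hdac9 and Dnmt1, which are wholly complete coding, to Ep300 and Tet1 at 29.9% and 29.5%. Tet2 and Hdac9 have 1 listed transcript each, a complete coding one, so their shares were fixed in advance.

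Summed over complete coding transcripts alone, a choice made after the data had been seen, the ATPases drew apart. Smarca4 remained at 50.8 and 54.2 TPM and Smarca2 was at 18.1 and 16.3 TPM, a 3.04-fold difference where all transcripts gave 1.19-fold. The Smarca2 sum also holds short forms such as Smarca2-203 (236 residues). The 1583-residue Smarca2-201 alone was at 12.5 and 9.43 TPM. Crebbp exceeded Ep300 7.95-fold in place of 2.5-fold, with Ep300 at 3.12 and 2.4 TPM. Chd4 exceeded Chd7 4.47-fold in place of 2.63-fold. Within the Chd7 sum the 941-residue Chd7-206 was at 4.21 and 4.07 TPM and the 2986-residue Chd7-202 at 3.09 and 2.38 TPM. A pair of orders turned over. Tet1, 2.11-fold above Tet2 over all transcripts, was 1.58-fold below it. Tet2 has 1 listed transcript, a complete coding one, and Tet1 has 6, so this choice could lower Tet1 alone. Hdac4, 1.27-fold below Hdac7 over all transcripts, was 1.23-fold above it, at 10.8 and 11.4 against 9.71 and 8.3 TPM. Cbx7 and Cbx8, which overlapped before, were apart with Cbx7 2.25-fold higher. Other pairs hardly moved: Ezh2 over Ezh1 was 2.7-fold, Arid1a over Arid1b 2.41-fold and Dnmt3a over Dnmt3b 6.84-fold. Smarca2 has 19 listed transcripts against 4 for Smarca4, and Ep300 has 6 against 2 for Crebbp. The part of these numbers in the shifts was not tested. No call in either set comes from a test, since 2 libraries allow a two-sided exact sign-flip p of 0.5 at the least.

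**Figure D4:**
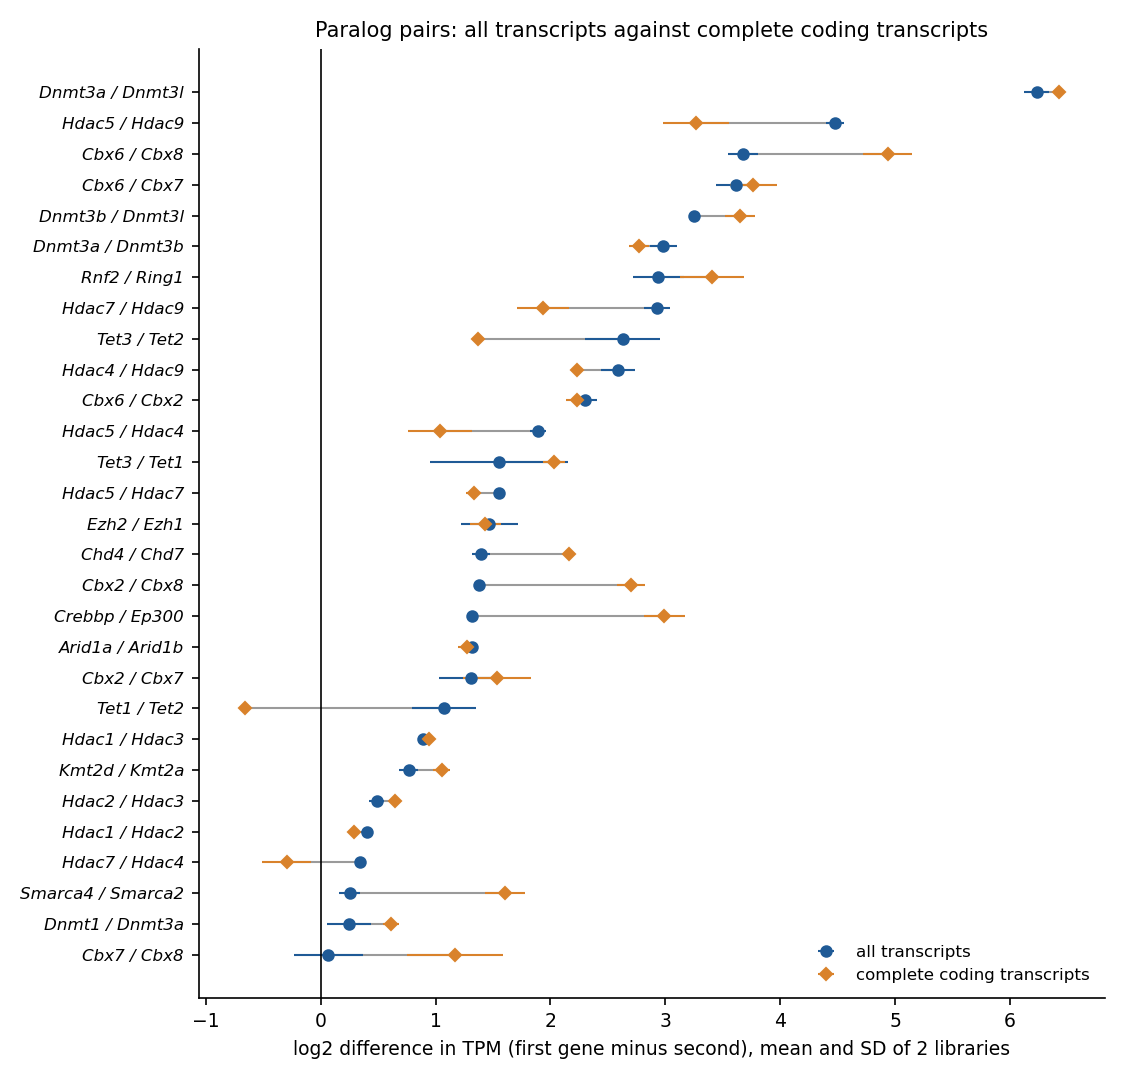
Log2 difference in TPM between the genes of each of 29 paralog pairs, with the gene that is higher over all transcripts named first, as mean and SD of 2 libraries. Circles use all transcripts and diamonds complete coding transcripts only, and Tet1 over Tet2 and Hdac7 over Hdac4 cross 0 between them.

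Some members share exon bases with a neighbour, and the strand setting of the counting was not given in the sources used here. By the GENCODE M21 gene models this held for 18 members, 5 with a gene on the same strand and 13 on the opposite strand. For Tet2 and Kmt2a no level of the neighbour was used here. The neighbour was more abundant than the member for Cbx7, whose exons overlap those of Apobec3 by 100 bases (40.3 and 36.3 TPM), and for Hdac7, which overlaps Slc48a1 by 29 bases (29.3 and 31.4 TPM). Hdac4 had the longest overlap, 3536 bases with the long non-coding RNA Gm26720, which was at 0.72 and 0.34 TPM. Expected counts were whole numbers for 29 members and fractional for 11, among them Hdac1, Uhrf1 and Suz12. Values of members that share exon bases or have fractional counts are less certain.

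Promoter sequence was set beside level as a description. Of the 40 members 35 had at least 1 RefSeq window, 49 in all, and the highest CpG ratio among a gene's windows was used. Cbx2, Hdac1, Hdac3, Kdm6b and Chd7 had none. The median ratio of observed to expected CpG was 0.8995 over members. It was 0.769 over protein-coding genes at 1 TPM or more in both libraries and 0.201 over those under 1 TPM in both. A window with a ratio of at least 0.6 and a GC content above 50% was found for 32 of the 35, or 91.4%, against 68.8% of the detected and 12.9% of the low genes. Dnmt1 counts among the 32 through the window of Dnmt1-203. Tet1, Smarca2, Crebbp and Arid1b count through windows of Tet1-207, Smarca2-209, Crebbp-205 and Arid1b-202, none of them the leading transcript of its gene. The same holds for Arid1a, through Arid1a-201 and Arid1a-203, and for Hdac7, through Hdac7-202 and a window that includes Hdac7-201. Ep300 counts through Ep300-205, which leads by TPM but is a retained-intron form. The 3 exceptions were Tet3 at 0.576, Dnmt3l at 0.272 and Hdac9 at 0.205. The Hdac9 window is printed above. For Dnmt3l the value of 0.272 is that of the Dnmt3l-205 window, while the window printed above is that of Dnmt3l-206, at 0.114. Dnmt3l and Hdac9 were also the 2 members of lowest level. Tet2, with the highest ratio of 1.17, was next lowest at 4.99 and 4.84 TPM, so CpG content did not order the members by level.

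**Figure D5:**
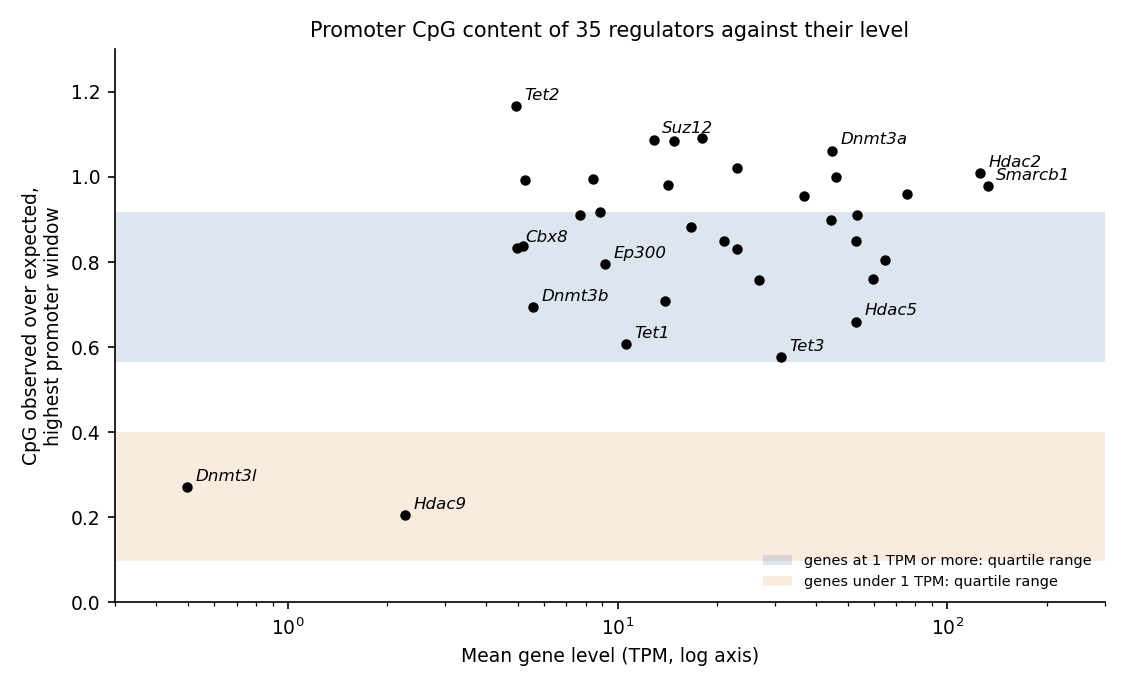
Highest ratio of observed to expected CpG among the promoter windows of 35 members against mean level in TPM (log axis), 1 point per gene. Shaded bands are the quartile ranges of protein-coding genes at 1 TPM or more (upper) and under 1 TPM (lower); Dnmt3l and Hdac9 lie in the lower band, the other 33 members in or above the upper one.

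Short motifs were counted on both strands of the same windows, as letters only. CCAAT was found in a window of 13 of the 35 members, or 37.1%, against 42.3% of all 17491 protein-coding genes with a window and 42.9% of the detected ones, which are the nearer comparison since 34 of the 35 members are detected. TTTCCCGC or TTTGGCGC, forms of the E2F site known from cell-cycle genes, were found for 4 members, or 11.4%, against 2.31% of all and 3.24% of the detected genes. The 4 were Ezh2, Suz12, Dnmt1 and Arid1a. For Ezh2 and Suz12 the window is that of the leading transcript. For Dnmt1 it is the window of Dnmt1-203, with 1.69% of the gene's TPM, and not a window printed above, and for Arid1a that of the retained-intron form Arid1a-203, with 3.84%. GCATGCGC, the core of the NRF1 site, was found for Dnmt1, Smarca4 and Smarcb1, or 8.57% against 3.93% of all and 5.6% of the detected genes, and CCGGAAG, of the ETS type, for Smarca2 alone, or 2.86% against 12.9% and 18.8%. No motif contains another, though GCATGCGC can overlap its own reverse complement. With 35 genes these counts are small and were not tested.

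Partner genes of the same complexes were read beside the members from 7 lists holding 119 genes, chosen with earlier results of these data known. Of the 119, 115 reached 1 TPM in both libraries, with a median of 19.4 ± 0.559 TPM. Of the 118 past the filter 5 were higher in replicate 1 and 1 in replicate 2 by more than 25%, beside 10.9% and 10.8% of all genes. These were Epop at a log2 ratio of 0.85, Sirt1 at 0.38, Aebp2 at 0.37, Smarcd3 at 0.36 and Hdac11 at 0.35, and Rcor2 at -0.35. Epop had 43 and 13 expected counts and stood under 1 TPM in both libraries.

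The histone-binding proteins Rbbp7 and Rbbp4, which serve PRC2, NuRD and Sin3 alike, exceeded every member at 478 and 494 TPM and 236 and 241 TPM. Over complete coding transcripts Rbbp7 remained so at 476 and 494 TPM, while Rbbp4, at 82.4 and 79.9 TPM, stood below Hdac1, Smarcb1 and Hdac2. At the other end of the Polycomb list were Asxl3 at 0.93 and 0.98 TPM and Epop at 0.63 and 0.34 TPM. Around the DNA methyltransferases Mbd3, a NuRD subunit, was highest at 113 and 110.0 TPM, followed by Trim28, the co-repressor of KRAB zinc-finger proteins, at 99.5 and 109.6 TPM, while Zbtb4, a zinc-finger protein that binds methylated DNA, was at 2.73 and 2.82 TPM, with Dppa3 below it. The demethylation partner of the TET enzymes, the glycosylase Tdg, named here for its role, was at 85.2 and 92.9 TPM. Over complete coding transcripts Tdg was at 70.1 and 76.2 TPM, Mbd3 at 80.4 and 73.3 TPM and Trim28 at 28.0 and 27.4 TPM. Among co-repressors Sin3b led at 114 and 118 TPM, then Sirt2 at 50.96 and 50.4 TPM, and Rcor2 and Sirt1 were lowest at 4.37 and 8.14 and at 3.63 and 2.73 TPM. The shared COMPASS subunits Dpy30 and Ash2l, at 141 and 142 and at 58.6 and 62.4 TPM, were far above the catalytic members Kmt2a and Kmt2d, and Suv39h2 and Setd1b were lowest at 5.85 and 5.18 and at 4.31 and 3.41 TPM.

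Among further SWI/SNF subunits Smarce1 and Actl6a were highest at 143 and 170.1 and at 97.6 and 101 TPM. Over complete coding transcripts Smarce1 was at 89.6 and 89.3 TPM and Actl6a at 78.7 and 74.7 TPM. Dpf3 and Actl6b, the latter a subunit of the neuronal complex, were lowest at 3.45 and 3.66 and at 2.73 and 3.02 TPM. In the remodeller list Mta2, a NuRD subunit, was at 121 and 119 TPM and Chd3, the alternative NuRD ATPase, at 44.8 and 40.6 TPM, beside 37.6 and 35.8 TPM for Chd4. Over complete coding transcripts the order of these ATPases turned, with Chd3 at 13.6 and 13.1 TPM and Chd4 at 32.4 and 29.7 TPM. Ino80 and the neuronal Chd5 closed that list at 2.91 and 3.28 and at 0.67 and 0.79 TPM. The acetyltransferases Kat7 and Kat2a, at 48.3 and 55.4 and at 32.9 and 34.8 TPM, were above Crebbp and Ep300, and Kat6a and Kat2b were lowest at 10.9 and 7.88 and at 4.19 and 5.55 TPM.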

How the data were processed

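Total RNA-seq of 2 stomach pools (1 group, E16.5) was read from gene and transcript tables. Per the file headers and labels, the authors deposited expected counts, TPM, FPKM and TPM intervals per gene and transcript on mm10 with annotation M4; no source used here names the quantifier, its strand setting or the interval level. Nothing says whether extraction was shared, and the replicates' spread may be partly technical. Replicate 1 totals 44567153 and replicate 2 25677702 expected counts, spike-ins included (3.08% and 2.05%).

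The members and lists were chosen with earlier results of these data known. All 40 members are named, with the 2 highest and 2 lowest genes of each partner list and the 5 largest ratios over all partner genes; the sixth beyond 25% and Tdg were added after their values were seen. Symbols (42462 of 43346 genes), positions and transcript classes came from GENCODE M21 on the same assembly, where 125 of 146 member transcripts had the deposited length (Smarca2 and Ep300 forms differed). Expected counts were rounded and compared with edgeR 4.0.16 (TMM, prior count 2, filterByExpr), tested on simulated data, with DESeq2 1.42.0 size factors as an alternative (R 4.3.3). Paralog differences are log2(TPM + 0.1). Python 3.11.15, numpy 2.4.6, pandas 2.3.3 and matplotlib 3.10.9 did the rest. Promoter windows are RefSeq, GRCm38. Alternatives were other scalings, prior counts, thresholds, pseudocounts, FPKM, posterior mean TPM, transcript sets and single libraries. Protein sequences were not used here, and no identity between paralogs was computed. Deposited TPM can lie outside its interval.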

Additional observations from a re-analysis of the deposited data

How the results depend on the processing

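Of 428 alternative values, 374 stayed on the same side of their limit or within the replicate spread. Some of these 374 still moved. Members detected fell from 39 to 34 at a threshold of 5 TPM. The Suz12 log2 ratio went from 0.29 to -0.28 by spike-in totals, inside the 25% limit on both sides. Cbx2 over Cbx8 went from 1.37 to 2.70 on the log2 scale over complete coding transcripts. The median member level was 12.1 in FPKM and 13.6 TPM over complete coding transcripts, an alternative added after the data had been seen, where the main value was 17.9. Members beyond 25% numbered 0 by TMM, and 5 in unscaled TPM, 33 by spike-in totals, 1 by total expected counts (Ep300) and 2 with no filter (Dnmt3l and Ep300), where 24.6%, 86.8%, 21.9% and 39.8% of all genes were beyond it in that order, while DESeq2 size factors and both other prior counts gave 0. Under the spike-in totals the median ratio of members was -0.50, beside -0.57 over all genes, where spike-ins held 3.08% of expected counts in replicate 1 and 2.05% in replicate 2. The members detected numbered 39 with either library alone, and the median level was 16.8 to 19.0 TPM. Cbx7 over Cbx8 was -0.14 to 0.28 on the log2 scale with either library alone. Over complete coding transcripts Tet1 over Tet2 was -0.66 and Hdac4 over Hdac7 0.30, and over all protein-coding transcripts these were 0.07 and 0.34. The cause of these shifts was not tested. Paralog calls numbered 28 to 29 of 29 throughout. With 2 libraries depth limits Dnmt3l most, at 14 and 6 expected counts, and transcript shares of genes with few reads. No paired analysis was possible because there is only 1 group.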
